A study of Homo sapiens with 34 samples.

Results

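EPCAM and the tight junction genes CLDN3, CLDN4, CLDN6, CLDN7, CLDN10, OCLN, TJP1 and TJP3 were followed across 17 culture conditions of a human embryonic stem cell line. The 9 genes were taken by their symbols, which had to be present in both deposited count tables. They are 9 of 35940 symbols, or 11 of 37951 gene identifiers, because OCLN and TJP1 each stand under a pair of identifiers. All 9 passed the filter on low counts that left 17236 genes for testing.

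The cells were ESI-017, an established human embryonic stem cell line, so every value below is from a single line. Bulk RNA sequencing was made on 34 libraries, 2 replicate cultures in each condition, and the total estimated count of a library was between 15522780 and 23439799 (median 19341117). The conditions cross a treatment of the first day with a medium of the second day, and the question is how the first day's signals shape what the cells do in the second. All groups share the line, which per the labels was kept in mTeSR Plus on Matrigel, and per the methods the treatments of the first day were made up in Essential 6 medium.

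The first day lasted 24 h. DE(a), the first step of the definitive endoderm protocol, held activin at 100 ng/ml and CHIR at 2 µM, where CHIR is a GSK3 inhibitor that activates WNT signalling. APS, for anterior primitive streak, held activin at 30 ng/ml, bFGF at 20 ng/ml and CHIR at 4 µM. MPS, for mid primitive streak, held activin at 30 ng/ml, bFGF at 20 ng/ml, BMP4 at 40 ng/ml and CHIR at 6 µM. PPS, for posterior primitive streak, had the same bFGF, BMP4 and CHIR as MPS and no activin. Cells of each treatment were collected at 24 h or moved for a second day to 1 of 3 media and collected at 48 h. DE(b) medium held activin at 100 ng/ml and the BMP receptor inhibitor LDN at 250 nM. PM medium, for paraxial mesoderm, held the activin receptor inhibitor A8301 at 1 µM, bFGF at 20 ng/ml and LDN at 250 nM. Neither the labels nor the methods list CHIR for PM medium, while the account of another experiment of the study does. The study's introduction also names WNT activation with BMP inhibition for paraxial induction. Its results refer to strong WNT activation in PM cells on the second day. Whether PM medium held CHIR in these libraries is therefore not settled by their labels. LM medium, for lateral mesoderm, held A8301 at 1 µM, BMP4 at 30 ng/ml and IWP2, which blocks WNT secretion, at 4 µM. A group is named by both steps, so PPS-LM is PPS followed by LM medium. The standard protocols are MPS-LM for lateral mesoderm, APS-PM for paraxial mesoderm and DE(a)-DE(b) for definitive endoderm, and Ctrl is the undifferentiated control, labelled 48 h.

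Tight junctions seal the space between neighbouring epithelial cells near their apical side. Claudins form the strands of the seal and set which ions and molecules pass, occludin joins them in the membrane, and the ZO proteins tie the strands to the actin cytoskeleton. Human pluripotent cells grow as a polarised epithelium with such junctions, and mesoderm formation at the primitive streak is the classical case in which an epithelium gives them up. EPCAM, an adhesion protein of epithelial cells, binds claudin-7 and is used as a surface marker of undifferentiated stem cells. In bulk libraries, fewer cells with a given RNA and less of that RNA per cell cannot be told apart.

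In the undifferentiated control, CLDN6 had the highest level per length of the 9 genes. Levels are given in CPM, a count scaled to its library's total, and genes are compared only after dividing the mean control CPM by the length of the canonical transcript in kilobases (GRCh38, GENCODE v44). CLDN6, an embryonic claudin with its gene at chr16:3014712-3020071, stood at 427 CPM per kilobase. EPCAM, at chr2:47345158-47387601, followed with 133 CPM per kilobase. CLDN7, the claudin partner of EPCAM at chr17:7259903-7263983, stood at 40.6 CPM per kilobase, and TJP1, the scaffold ZO-1 at chr15:29699367-29968915, at 29.5 CPM per kilobase. These 4 were the main RNAs of the group. CLDN10, a claudin that forms ion channels, lies at chr13:95433604-95579759 and stood at 7.27 CPM per kilobase. OCLN, the gene of occludin at chr5:69492292-69558104, stood at 6.69 CPM per kilobase. The remaining genes were lower still. CLDN3 and CLDN4, barrier-forming claudins at chr7:73768997-73770270 and chr7:73799542-73832690, stood at 5.50 and 4.77 CPM per kilobase. TJP3, the scaffold ZO-3 at chr19:3708362-3750813, was the lowest at 3.75 CPM per kilobase.

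Promoters were set side by side because CLDN7, OCLN and CLDN6 fell together on the second day while CLDN4 rose in some of the same libraries, as given below. The 250 bases before a transcription start were taken from RefSeq (GRCh38.p14), where 8 of the 9 genes had 15 entries in all. Both strands were searched for CACCTG, which reads CAGGTG on the other strand and is the E-box bound by the repressors of the SNAI and ZEB families. It was present in 17.49% of 35116 promoters of the same length and in 5 of the 15 entries here. The promoter of CLDN7 at chr17:7262479-7262728 (minus strand) held 4 copies, starting at positions -174, -135, -20 and -9 counted back from the base before the start. At least 4 copies were found in 43 of the 35116 promoters, or 0.1225%. The promoter of OCLN at chr5:69492297-69492546 (plus strand) held 1 copy, starting at position -33. Those of CLDN6 at chr16:3018184-3018433 (minus strand) and of CLDN4 at chr7:73830746-73830995 (plus strand) held none. E-boxes are in capitals, and each sequence runs 5′ to 3′ on the strand of its gene.
CLDN7: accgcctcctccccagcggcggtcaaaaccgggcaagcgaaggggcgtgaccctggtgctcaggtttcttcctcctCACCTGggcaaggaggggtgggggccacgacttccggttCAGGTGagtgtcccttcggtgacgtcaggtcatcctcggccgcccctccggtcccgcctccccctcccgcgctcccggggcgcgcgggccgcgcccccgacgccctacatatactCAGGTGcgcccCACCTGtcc
OCLN: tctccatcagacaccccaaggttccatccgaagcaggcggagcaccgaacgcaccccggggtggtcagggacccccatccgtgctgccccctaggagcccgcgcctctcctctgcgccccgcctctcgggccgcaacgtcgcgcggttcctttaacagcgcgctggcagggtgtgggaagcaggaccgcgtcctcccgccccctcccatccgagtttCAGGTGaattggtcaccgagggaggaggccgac
CLDN6: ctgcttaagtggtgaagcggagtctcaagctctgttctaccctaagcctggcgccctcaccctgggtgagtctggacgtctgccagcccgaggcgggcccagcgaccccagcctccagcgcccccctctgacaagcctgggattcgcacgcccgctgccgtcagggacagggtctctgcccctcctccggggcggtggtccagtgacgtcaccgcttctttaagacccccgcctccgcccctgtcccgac
CLDN4: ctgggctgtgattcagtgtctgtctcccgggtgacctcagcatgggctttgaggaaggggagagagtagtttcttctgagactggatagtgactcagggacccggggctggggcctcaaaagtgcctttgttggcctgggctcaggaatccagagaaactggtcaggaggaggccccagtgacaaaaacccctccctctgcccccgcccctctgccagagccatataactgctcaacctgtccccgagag
The second OCLN entry, 1 of 4 for TJP1 and 1 of 2 for TJP3 also held 1 copy each, and the CLDN3, CLDN10 and other CLDN7 entries held none. The core of the grainyhead-like motif, ACCGGT, was in 1.449% of all promoters and in 0 of the 15 entries. A match describes the letters alone, and binding was not measured.

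The 9 genes differed widely in how far they moved over the 17 conditions. The ratio of the highest to the lowest condition mean was 97.1 for TJP3, 69.9 for CLDN3, 33.5 for CLDN7, 26.6 for CLDN4, 15.6 for EPCAM, 13.9 for CLDN10, 11.7 for OCLN and 7.95 for CLDN6. TJP1 was the exception, with a ratio of 1.92. CLDN3 and TJP3 were sparse, and the low ends of their ratios rest on 1 and 3 counts of CLDN3 in the MPS-LM libraries and on 2 and 2 counts of TJP3 in those of MPS-PM. CLDN3 stayed under 10 CPM in every condition mean and TJP3 reached it only in the control.

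**Figure D1:**
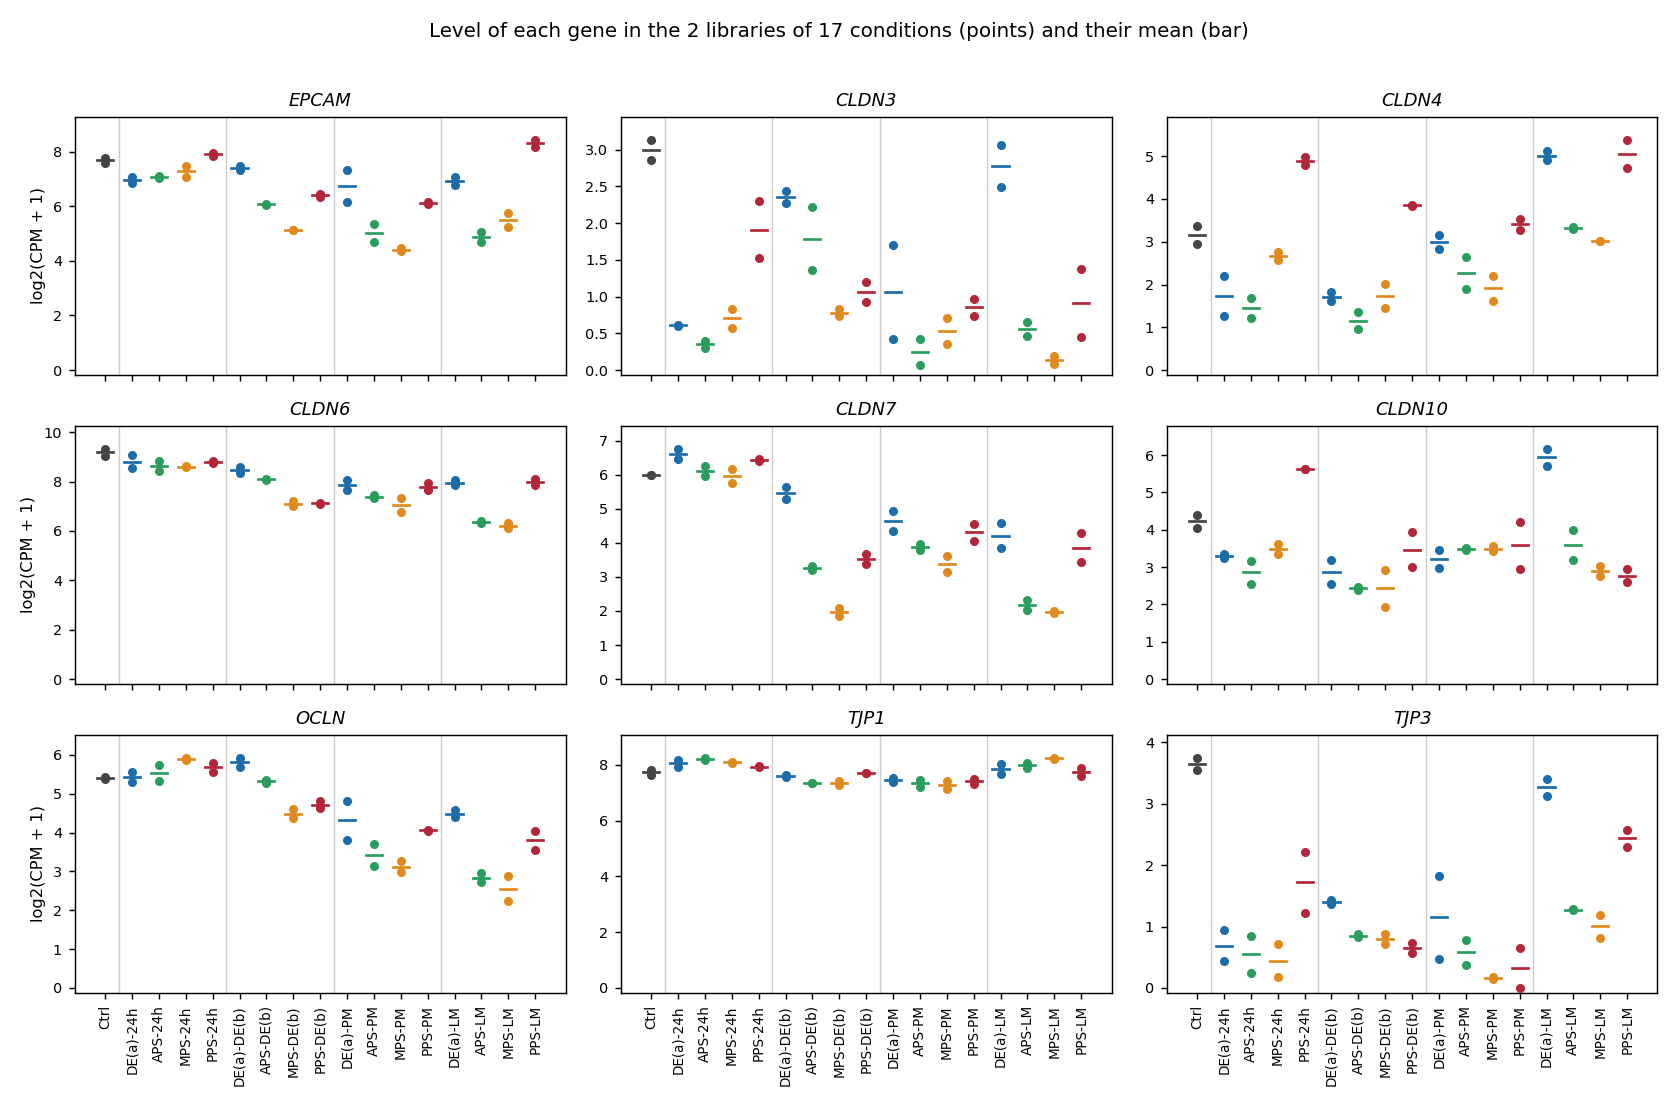
Level of the 9 genes as log2(CPM + 1) in the 17 conditions, with 2 libraries per condition as points and their mean as a bar, coloured by the treatment of the first day. EPCAM peaks in PPS-LM, CLDN4 in PPS-24h, DE(a)-LM and PPS-LM, CLDN10 in PPS-24h and DE(a)-LM, and TJP1 stays between 142 and 306 CPM in all libraries.

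When the conditions were ordered by their mean, most neighbours in the order had overlapping replicates: 15 of 16 pairs of neighbours for CLDN3, 13 each for CLDN4, CLDN10 and TJP1, 12 each for CLDN6, OCLN and TJP3, 10 for CLDN7 and 9 for EPCAM. For EPCAM the 7 pairs without overlap included PPS-LM above PPS-24h, PPS-24h above the control and the control above DE(a)-DE(b). The DE(a)-PM replicates stood apart for several genes, with EPCAM at 158 and 69.9 CPM and OCLN at 26.9 and 13.1 CPM, and the EPCAM and OCLN values in PM medium that rest on that group are given with and without each of its libraries. A second identifier held between 2.0% and 31.2% of the OCLN counts and between 51.3% and 74.7% of the TJP1 counts. The identifiers were summed.

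For each standard protocol, the summed marker genes of its fate stood above the undifferentiated control. The summed CPM of 5 definitive endoderm markers was 4943 and 4689 in the DE(a)-DE(b) libraries and 2.80 and 4.04 in the control. That of 4 paraxial mesoderm markers was 1188 and 1172 in APS-PM and 9.74 and 6.81 in the control. The 4 lateral mesoderm markers summed to 1967 and 2344 CPM in MPS-LM and to 2130 and 1972 CPM in PPS-LM, with 0.271 and 0 CPM in the control.

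Against the undifferentiated control, the junction genes mostly fell, and they fell unequally. Each of the 16 treated groups was compared with the control for each gene, and a call means an adjusted p under 0.05 in edgeR's quasi-likelihood test over all 17236 genes. Of these 144 tests, 84 were called lower, 10 higher and 50 not at all, and over all genes 17.1% of tests were called lower and 19.7% higher. All 16 comparisons share the same 2 control libraries, and without control replicate 1 or replicate 2 the 10 higher calls became 5 or 6, while the lower calls stayed between 76 and 85 whichever library was left out. Single comparisons called between 9.58% and 21.5% of all genes lower and between 11% and 24.4% higher. The median log2 fold change of the 9 genes was -2.88 in MPS-LM, against 0.01 over all genes.

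TJP3 was the most uniform. The control libraries held 12.4 and 10.6 CPM of TJP3, and all 32 treated libraries were below both. The values fell to 0.363 and 0.912 CPM in DE(a)-24h and reached 7.69 and 9.60 CPM in DE(a)-LM, the treated group nearest to the control. TJP3 was called lower in 14 of 16 groups, 11 of them under every alternative, and DE(a)-LM and PPS-LM were not called. CLDN3 was similar, with 7.78 and 6.24 CPM in the control and 31 of 32 treated libraries below both. It was called lower in 12 groups, 9 of them under every alternative. At 24 h CLDN3 stood at 0.237 and 0.320 CPM in APS-24h, a log2 fold change of -4.53 (SE 0.80, edgeR adjusted p = 1.27e-04). In MPS-LM it had 4 counts in all, and the ratio of its summed counts to the control was 0.0148, with an exact 95% interval from 0.00401 to 0.0383 that covers counting error only.

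CLDN6, CLDN7 and OCLN were not called against the control on the first day and fell on the second. CLDN6 stood at 642 and 524 CPM in the control and CLDN7 at 62.6 and 62.7 CPM. In the 4 groups of 24 h the CLDN6 libraries lay between 346 and 540 CPM and the CLDN7 libraries between 52.7 and 108 CPM. In the 12 groups of 48 h CLDN6 was called lower in 12, 11 of them under every alternative, and CLDN7 in 11, all under every alternative. The exception for CLDN7 was DE(a)-DE(b), at 48.9 and 37.8 CPM. The control libraries held 40.3 and 42.4 CPM of OCLN, and 9 of the 12 groups of 48 h were called lower, 6 of them under every alternative. The 3 groups without a call all ended in DE(b) medium, where only the cells that began with MPS were called lower for OCLN.

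EPCAM, CLDN4 and CLDN10 moved in both directions. EPCAM was called lower in 10 groups, 8 of them under every alternative, and higher in PPS-LM. CLDN4 was called lower in 7 groups and higher in PPS-24h, DE(a)-LM and PPS-LM, and the 3 higher calls and 4 of the 7 lower ones held under every alternative. CLDN10 was called lower in 7 groups, 2 of them under every alternative, and higher in PPS-24h and DE(a)-LM. In PPS-24h the CLDN10 call was lost without control replicate 2 (edgeR adjusted p = 0.073). TJP1 was called higher in 4 groups and lower in 2, with log2 fold changes between -0.45 and 0.61, and none of the 6 calls held under every alternative. With the identifiers kept apart, 1 TJP1 call was left for the first identifier, a higher one, and 0 for the second.

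**Figure D2:**
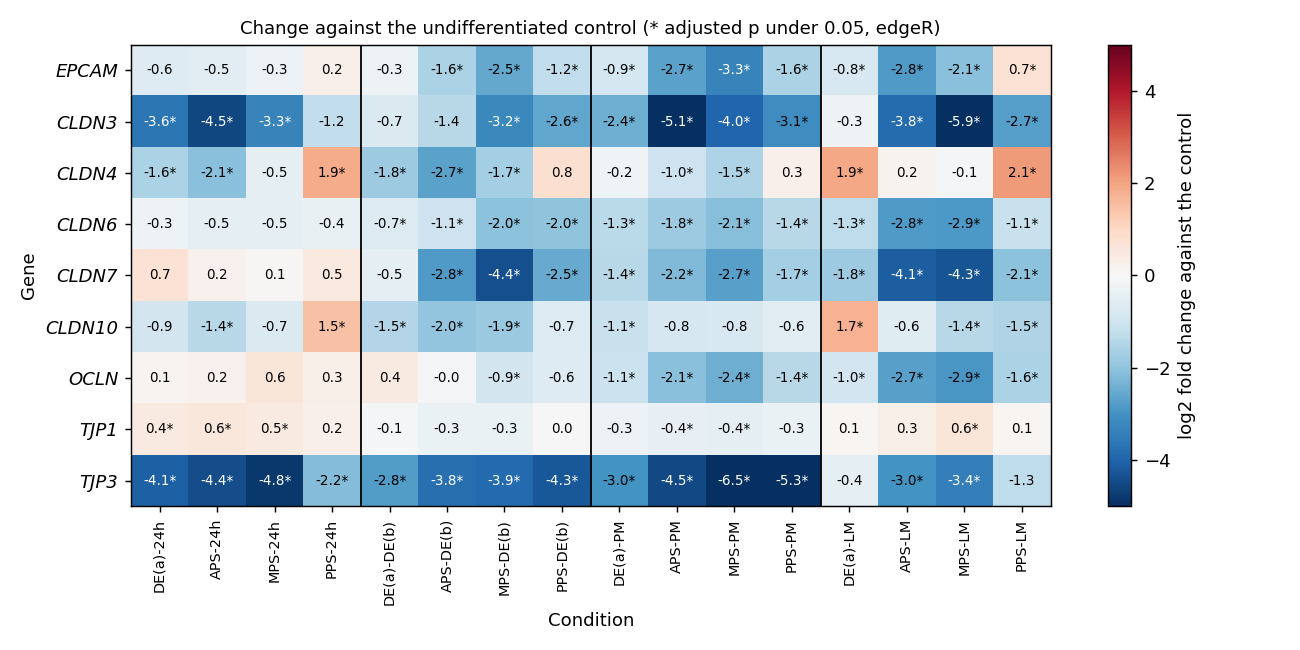
Log2 fold change of the 9 genes (rows) in the 16 treated groups (columns) against the undifferentiated control, as colour that saturates at 5 and as a number, with an asterisk where edgeR's adjusted p is under 0.05. Blue cells, for lower levels, fill most of the map, and the 10 called red cells lie in CLDN4, CLDN10, TJP1 and EPCAM.

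On the first day, leaving activin out of the streak treatment went with more CLDN4 and CLDN10. MPS-24h held 5.00 and 5.79 CPM of CLDN4 and PPS-24h 26.8 and 30.4 CPM. CLDN10 stood at 9.27 and 11.2 CPM in MPS-24h and at 48.8 and 48.3 CPM in PPS-24h. For both genes the PPS-24h libraries lay above those of MPS-24h, APS-24h, DE(a)-24h and the control. The log2 fold change of PPS-24h against MPS-24h was 2.34 (SE 0.37, edgeR adjusted p = 2.79e-04) for CLDN4, and 2.18 (SE 0.40, edgeR adjusted p = 0.00136) for CLDN10. Both calls held under every alternative. Over all genes 3.43% were called higher and 3.62% lower in this comparison, against 2 and 0 of the 9 genes here. At an unadjusted p under 0.05 these counts were 5 and 0, and DESeq2 called 4 and 0, adding CLDN3 and TJP3. No share of all genes is given for an unadjusted p or for DESeq2, here or below. These counts are therefore not to be read against 3.43% and 3.62%. CLDN3 stood at 0.781 and 0.491 CPM in MPS-24h and 1.88 and 3.91 CPM in PPS-24h, and TJP3 at 0.130 and 0.638 CPM against 1.33 and 3.66 CPM. Neither was called by edgeR, with adjusted p = 0.0830 and 0.0682. The MPS-24h libraries held only 18 and 10 counts of CLDN3 and 3 and 13 counts of TJP3.

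EPCAM stood at 246 and 227 CPM in PPS-24h and 133 and 177 CPM in MPS-24h. The PPS libraries were the higher ones and the log2 difference was 0.55 (95% interval from 0.01 to 1.09, edgeR adjusted p = 0.223). Between the treatments that all held activin, few differences passed. None of the 9 genes was called in edgeR for APS-24h against DE(a)-24h, where 0.777% of all genes were called, and the count was also 0 at an unadjusted p under 0.05 and in DESeq2. For MPS-24h against APS-24h 2.16% of all genes were called higher, and of the 9 genes only CLDN4, at 2.22 and 1.33 CPM in APS-24h, with a log2 fold change of 1.61 (SE 0.39, edgeR adjusted p = 0.0198). That call was lost without MPS-24h replicate 1 (edgeR adjusted p = 0.071), APS-24h replicate 2 (0.31) or MPS-24h replicate 2 (0.13) and in a fit of the compared libraries alone (0.096). In the 3 comparisons of neighbouring treatments together, 3 of 27 tests of the 9 genes were called higher and 0 lower, while all genes gave 2.08% and 1.64%.

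The second day lowered CLDN7, CLDN6 and OCLN in nearly every medium and changed CLDN4 and CLDN10 in opposite directions, depending on the first day. Each group of 48 h was compared with the group of 24 h that had the same first treatment. Over the 12 comparisons 57 of 108 tests of the 9 genes were called lower and 9 higher, and over all genes 14.7% were called lower and 14.2% higher, with single comparisons between 11.3% and 19.9% and between 9.83% and 19.7%. CLDN7 was called lower in all 12 and each call held under every alternative. Its largest fall was from 52.7 and 71.2 CPM in MPS-24h to 3.21 and 2.60 CPM in MPS-DE(b), a log2 fold change of -4.47 (SE 0.33, edgeR adjusted p = 1.04e-09). CLDN6 was called lower in 11 of 12 and OCLN in 10 of 12. EPCAM was called lower in 8 of 12, each under every alternative, and the exceptions were the 3 groups that began with DE(a) and PPS-LM. TJP1 was called lower in 7, of which 4 held under every alternative, and with the identifiers kept apart in 4 and 5 comparisons.

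In DE(a) cells, LM medium raised CLDN4, CLDN10, CLDN3 and TJP3 between the first and the second day. CLDN4 went from 3.58 and 1.40 CPM to 33.8 and 28.9 CPM and CLDN10 from 8.48 and 9.28 CPM to 71.0 and 51.2 CPM. CLDN3 went from 0.518 and 0.537 to 7.38 and 4.60 CPM, and TJP3 from 0.363 and 0.912 to 7.69 and 9.60 CPM. No share of all genes without overlap is given, and none of these 4 overlapped between the days. Their log2 fold changes were 3.52 for CLDN4, 2.64 for CLDN10, 3.35 for CLDN3 and 3.63 for TJP3, with SEs from 0.40 to 0.84 and edgeR adjusted p between 3.66e-07 and 0.00172, and each call held under every alternative. In the same libraries CLDN7 fell, with a log2 fold change of -2.56 (SE 0.29, edgeR adjusted p = 3.78e-07). The rises of CLDN3 and CLDN4 in DE(a) cells were not confined to LM medium. CLDN3 was also called higher than on the first day in DE(b) medium, at 4.42 and 3.84 CPM. CLDN4 was also called higher in PM medium, at 7.90 and 6.12 CPM. CLDN10 and TJP3 were called higher in LM medium alone. After APS, CLDN3 was called higher in DE(b) medium as well, at 1.56 and 3.65 CPM. CLDN4 was called higher after APS in LM medium, at 9.15 and 8.81 CPM, and in PM medium, at 5.26 and 2.69 CPM. In APS-24h CLDN4 stood at 2.22 and 1.33 CPM. In PPS cells LM medium lowered CLDN10, to 6.70 and 5.07 CPM, with a log2 fold change of -2.99 (SE 0.42, edgeR adjusted p = 8.86e-06). The fall of CLDN10 in PPS cells was not confined to LM medium. It was also below PPS-24h in DE(b) medium, at 14.3 and 6.97 CPM, and in PM medium, at 17.6 and 6.69 CPM. CLDN4 in PPS-LM, at 25.6 and 40.7 CPM, overlapped with PPS-24h.

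In LM medium the level of nearly every junction gene depended on the treatment of the first day. MPS-LM, the standard, was compared with the other 3 groups in this medium, and these comparisons share the 2 MPS-LM libraries. Relative to MPS-LM, 8 of the 9 genes were higher in DE(a)-LM and 6 in PPS-LM, while edgeR called none in APS-LM, where 1 gene, EPCAM, had an unadjusted p under 0.05 and DESeq2 called none. Over all genes 9.43% were called higher and 6.13% lower in DE(a)-LM, 4.23% higher and 2.02% lower in PPS-LM, and 4.32% in either direction in APS-LM. The median log2 fold change of the 9 genes was 2.00 in DE(a)-LM, 2.12 in PPS-LM and 0.21 in APS-LM, and over all genes it was -0.0105, -0.00377 and 0.00977.

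EPCAM stood at 36.3 and 53.3 CPM in MPS-LM, 31.9 and 24.8 in APS-LM, 134 and 109.6 in DE(a)-LM and 289 and 343 in PPS-LM. The PPS-LM libraries were above all 32 others. Against MPS-LM the log2 fold change of PPS-LM was 2.79 (SE 0.27, edgeR adjusted p = 5.99e-07), and that of DE(a)-LM was 1.30 (SE 0.26, edgeR adjusted p = 0.00113). Both held under every alternative. Against the undifferentiated control EPCAM in PPS-LM was higher by 0.71 (SE 0.26, edgeR adjusted p = 0.0286), a call that was lost without Ctrl replicate 1 (edgeR adjusted p = 0.17), PPS-LM replicate 2 (0.20) or Ctrl replicate 2 (0.066).

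CLDN4 stood at 7.12 and 7.12 CPM in MPS-LM and 25.6 and 40.7 CPM in PPS-LM, without overlap. The log2 fold change was 2.20 (SE 0.36, edgeR adjusted p = 4.06e-04), and for DE(a)-LM it was 2.00 (SE 0.36, edgeR adjusted p = 3.67e-04). CLDN6 stood at 67.5 and 79.1 CPM in MPS-LM, 265 and 231 in DE(a)-LM and 233 and 275 in PPS-LM, so that both of the latter stood above MPS-LM and below the control. Its log2 fold change in PPS-LM was 1.77 (SE 0.20, edgeR adjusted p = 4.97e-06). CLDN7 stood at 2.85 and 3.0 CPM in MPS-LM, at 22.8 and 13.5 CPM in DE(a)-LM and at 9.91 and 18.4 CPM in PPS-LM, again with MPS-LM lowest, and its log2 fold change in PPS-LM was 2.25 (SE 0.32, edgeR adjusted p = 6.19e-05). The calls of CLDN4, CLDN6 and CLDN7 held in both groups under every alternative.

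CLDN10 separated the DE(a) and PPS cells. It stood at 7.12 and 5.72 CPM in MPS-LM, 71.0 and 51.2 CPM in DE(a)-LM and 6.70 and 5.07 CPM in PPS-LM. DE(a)-LM was far above, with a log2 fold change of 3.11 (SE 0.42, edgeR adjusted p = 1.24e-05). PPS-LM overlapped with MPS-LM, and the difference of -0.14 on the log2 scale had a 95% interval from -1.01 to 0.73.

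OCLN stood at 3.69 and 6.36 CPM in MPS-LM, 23.1 and 19.9 in DE(a)-LM and 10.8 and 15.4 in PPS-LM. Both of the latter were higher, with log2 fold changes of 1.94 (SE 0.29, edgeR adjusted p = 4.34e-05), and 1.34 (SE 0.29, edgeR adjusted p = 0.00493). The PPS-LM call was lost without MPS-LM replicate 1 (edgeR adjusted p = 0.14) or PPS-LM replicate 2 (0.14) and in a fit of the compared libraries alone (0.065). CLDN3 had 4 counts in all in MPS-LM and 36 in PPS-LM, a ratio of CPM of 9.22 with an exact 95% interval of counting error from 3.31 to 35.7, and edgeR called it with adjusted p = 0.0480. That call was lost without MPS-LM replicate 1 (edgeR adjusted p = 0.31), MPS-LM replicate 2 (0.15) or PPS-LM replicate 2 (0.72). In DE(a)-LM the 212 CLDN3 counts gave a ratio of 55.3 (interval from 21.3 to 205), called under every alternative.

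The scaffold genes TJP3 and TJP1 differed in opposite directions. TJP3 stood at 1.27 and 0.759 CPM in MPS-LM, 7.69 and 9.60 in DE(a)-LM and 3.92 and 4.95 in PPS-LM, without overlap. Its log2 fold change was 2.96 (SE 0.80, edgeR adjusted p = 0.0125) in DE(a)-LM, a call lost without MPS-LM replicate 1 (edgeR adjusted p = 0.055), DE(a)-LM replicate 2 (0.056) or MPS-LM replicate 2 (0.14). In PPS-LM it was 2.12 (SE 0.79, edgeR adjusted p = 0.138). TJP1 stood at 299.5 and 301 CPM in MPS-LM and 192 and 235 CPM in PPS-LM, the reverse order. It was called lower in both groups, with log2 fold changes of -0.51 and edgeR adjusted p = 0.0253 and 0.0490. In PPS-LM the call was lost without MPS-LM replicate 1, PPS-LM replicate 1, MPS-LM replicate 2 or PPS-LM replicate 2 (edgeR adjusted p from 0.057 to 0.44), with RLE size factors (0.067), without the filter on low counts (0.085), with the identifiers kept apart (0.23) and in a fit of the compared libraries alone (0.12). In DE(a)-LM it was lost without DE(a)-LM replicate 1 (edgeR adjusted p = 0.40), MPS-LM replicate 1 (0.077) or MPS-LM replicate 2 (0.18), without the filter on low counts (0.061) and in a fit of the compared libraries alone (0.15).

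**Figure D3:**
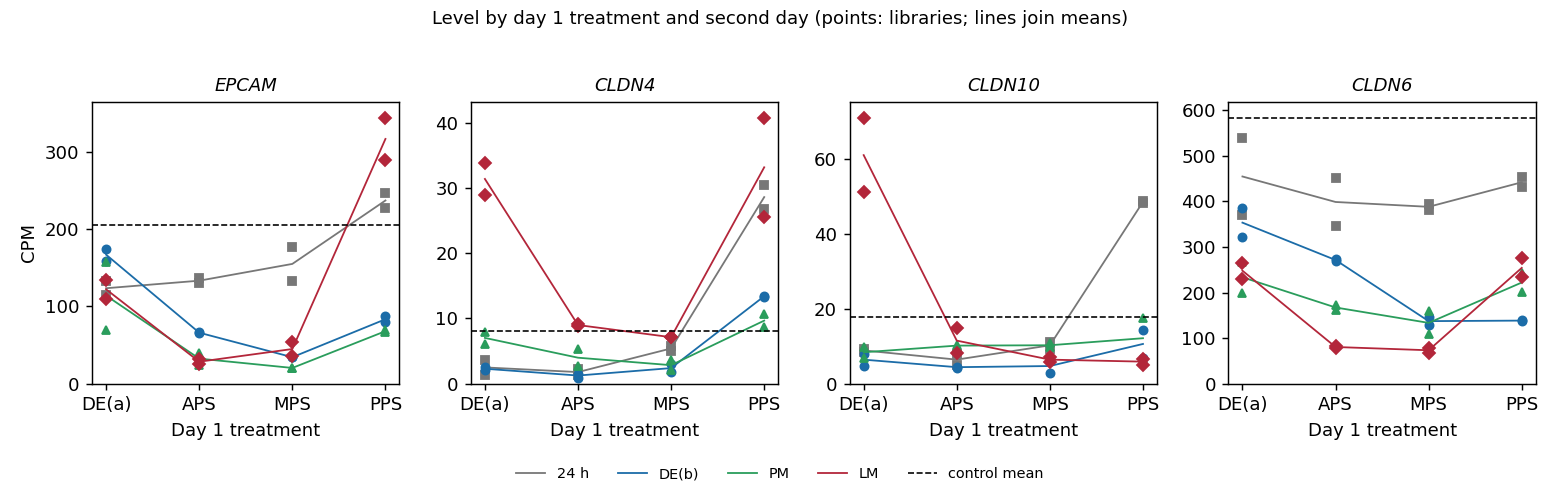
CPM of EPCAM, CLDN4, CLDN10 and CLDN6 by treatment of the first day, with libraries as points and lines joining the means at 24 h and in the 3 media of the second day. In LM medium (red) EPCAM, CLDN4 and CLDN6 are high at both ends and low in APS and MPS, while CLDN10 is high in DE(a) alone, at 51.2 and 71.0 CPM.

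Markers of amnion, an extraembryonic epithelium that BMP4 also induces, moved with these differences. The list holds 8 genes, and all 8 were called higher in PPS-LM than in MPS-LM, against 4.23% of all genes. Their summed CPM was 23.1 and 19.6 in the control, 81.5 and 129 in MPS-LM, 95.5 and 108 in APS-LM, 249 and 314 in DE(a)-LM and 349.8 and 489 in PPS-LM. At 24 h it was 62.5 and 71.3 in MPS-24h and 151 and 179 in PPS-24h. A mean of 1 CPM or more was reached by all 8 in PPS-LM, by 6 in DE(a)-LM and by 4 in MPS-LM. TFAP2A, a transcription factor of surface ectoderm and amnion, had a mean of 140 CPM in PPS-LM and 33.0 CPM in MPS-LM. ISL1, which amnion shares with cardiac mesoderm, had 84.9 and 19.2 CPM, and GABRP, a receptor subunit, 41.8 and 0.797 CPM. Definitive endoderm markers moved with DE(a)-LM, where 4 of 5 were called higher than in MPS-LM, against 9.43% of all genes, and their summed CPM was 139.7 and 103 against 0.295 and 3.90. DE(a)-LM also held the most RNA of 5 pluripotency markers among the LM groups, at a summed 648 and 449 CPM. That sum was 277 and 248 CPM in MPS-LM, 387 and 316 in APS-LM and 305 and 287 in PPS-LM. The control held 3280 and 3055 CPM. Lateral mesoderm markers in DE(a)-LM summed to 425 and 903 CPM, below those of MPS-LM. The part of any of these cell types in the junction values was not tested.

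MPS and PPS differ by activin alone, and their difference was next compared across the 3 media. Of 27 tests, 11 were called higher in PPS and 1 lower, and over all genes 2.88% were called higher and 1.88% lower. EPCAM and CLDN4 were called higher in all 3 media. In DE(b) medium EPCAM stood at 34.4 and 34 CPM in MPS cells and 87.2 and 79.3 CPM in PPS cells, and CLDN4 at 3.03 and 1.74 CPM against 13.3 and 13.5 CPM. The PPS libraries were higher without overlap, by log2 fold changes of 1.31 (SE 0.27, edgeR adjusted p = 0.00281) for EPCAM, and 2.51 (SE 0.39, edgeR adjusted p = 2.39e-04) for CLDN4. In that comparison 3.58% of all genes were called higher. CLDN7, at 3.21 and 2.60 CPM against 9.42 and 11.8 CPM, was the third gene called there, with a log2 fold change of 1.89 (SE 0.32, edgeR adjusted p = 5.82e-04). These 3 calls held under every alternative.

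In PM medium the MPS libraries held 20.9 and 19.7 CPM of EPCAM, and the PPS libraries were above them at 69.4 and 66.3 CPM. The difference of 1.75 (SE 0.27, edgeR adjusted p = 8.00e-04) on the log2 scale held under every alternative. CLDN4 stood at 3.60 and 2.06 CPM against 10.7 and 8.66 CPM, a difference of 1.79 (SE 0.38, edgeR adjusted p = 0.0156) on the log2 scale. The CLDN4 call was lost without PPS-PM replicate 1 (edgeR adjusted p = 0.075), MPS-PM replicate 2 (0.24) or PPS-PM replicate 2 (0.0504) and in a fit of the compared libraries alone (0.16). Only 0.818% of all genes were called higher in PM medium and 0.406% lower, and the other 7 genes here were not called by edgeR. At an unadjusted p under 0.05, and in DESeq2, CLDN6, CLDN7 and OCLN were also higher, and the shares above do not cover these settings.

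The size of the difference between PPS and MPS depended on the medium for a few genes. For CLDN6 it was 1.77 on the log2 scale in LM medium and 0.04 in DE(b) medium, where both groups stood between 129 and 146 CPM. The difference of these differences was 1.73 (SE 0.28, edgeR adjusted p = 6.37e-04), and it held under every alternative. For EPCAM the same interaction was 1.48 (SE 0.37, edgeR adjusted p = 0.0205), lost without MPS-DE(b) replicate 1, PPS-DE(b) replicate 1, MPS-LM replicate 1, MPS-DE(b) replicate 2, PPS-DE(b) replicate 2 or PPS-LM replicate 2 (edgeR adjusted p from 0.061 to 0.11). For TJP1 it was -0.89 (SE 0.22, edgeR adjusted p = 0.0188), lost without PPS-DE(b) replicate 1, PPS-LM replicate 1, MPS-DE(b) replicate 2, PPS-DE(b) replicate 2 or MPS-LM replicate 2 (edgeR adjusted p from 0.059 to 0.12) and with the identifiers kept apart (0.25). The interaction called 2.61% of all genes higher and 1.89% lower between LM and DE(b). Between LM and PM, and between PM and DE(b), edgeR called none of the 9 genes, where 1.21% and 1.71% of all genes were called. At an unadjusted p under 0.05 the counts were 4 and 1, and DESeq2 called CLDN6 alone, between LM and PM. The shares of all genes do not cover these settings. For CLDN4, the interaction of LM against DE(b) was -0.31 with a 95% interval from -1.40 to 0.79, so a medium-dependent difference was not detectable for it.

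**Figure D4:**
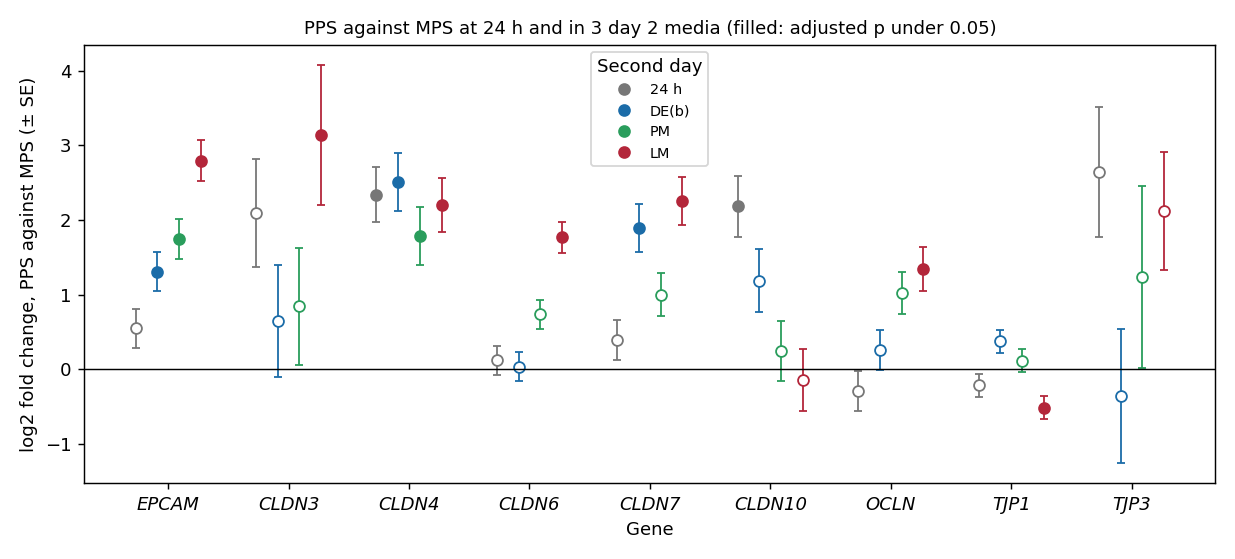
Log2 fold change of PPS against MPS (± SE) for each gene at 24 h and in the 3 media of the second day, filled where edgeR's adjusted p is under 0.05. CLDN4 lies between 1.79 and 2.51 in all 4 settings, EPCAM climbs from 0.55 at 24 h to 2.79 in LM medium, and CLDN10 goes from 2.18 at 24 h to -0.14.

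Over all 12 groups of 48 h, a joint test asked whether the effect of the first day differed between media at all. It called 14.8% of all genes and 7 of the 9 genes here. EPCAM, CLDN4, CLDN6, CLDN7 and CLDN10 passed in edgeR under all 29 alternatives, with adjusted p = 2.58e-05, 0.00842, 2.53e-05, 5.24e-04 and 1.14e-04. CLDN3 (adjusted p = 0.0442) and OCLN (0.0426) were lost in 18 and 17 of the 29 alternatives, in which edgeR's adjusted p reached 0.151 and 0.165, and TJP1 (0.0524) and TJP3 (0.449) were not called. TJP1 passed in 6 of the 29 alternatives, DESeq2 among them, with an edgeR or DESeq2 adjusted p as low as 0.00467, and TJP3 passed in 1, without the filter on low counts (edgeR adjusted p = 0.0275).

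In DE(b) medium the DE(a) cells had the most CLDN7, EPCAM, CLDN6 and OCLN. CLDN7 stood at 48.9 and 37.8 CPM in DE(a)-DE(b), the standard, and at 8.97 and 8.26 CPM after APS, 3.21 and 2.60 CPM after MPS and 9.42 and 11.8 CPM after PPS. The standard was above the others without overlap. The log2 fold changes of CLDN7 against the standard in cells that began with APS, MPS and PPS were -2.31, -3.89 and -1.99, with edgeR adjusted p = 5.46e-04, 9.07e-08 and 2.51e-05, and each held under every alternative. CLDN6 stood at 385 and 321 CPM in the standard and OCLN at 59.2 and 50.8 CPM, above the other 3 groups without overlap. For APS-DE(b) against the standard only 0.545% of all genes were called in either direction, and CLDN7 and EPCAM were among them. EPCAM was at 174 and 159 CPM in the standard and at 65.1 and 66.7 CPM in APS-DE(b), a log2 fold change of -1.32 (SE 0.26, edgeR adjusted p = 0.0150), lost without DE(a)-DE(b) replicate 1, APS-DE(b) replicate 1, DE(a)-DE(b) replicate 2 or APS-DE(b) replicate 2 (edgeR adjusted p from 0.083 to 0.25) and in a fit of the compared libraries alone (0.052). CLDN4 went the other way in PPS-DE(b), at 13.3 and 13.5 CPM against 2.52 and 2.05 CPM, and its log2 fold change of 2.59 (SE 0.39, edgeR adjusted p = 3.97e-05) held under every alternative. Of all genes 9.23% were called higher and 9.60% lower in that comparison, and 3.38% were called lower in MPS-DE(b) against the standard.

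In PM medium few differences between first treatments passed. Against APS-PM, the standard, EPCAM was called higher in DE(a)-PM and PPS-PM and CLDN4 in PPS-PM, and edgeR called no gene of the 9 in MPS-PM, where 0.569% of all genes were called, with 1 gene, EPCAM, at an unadjusted p under 0.05 and none called by DESeq2. EPCAM stood at 40.2 and 24.5 CPM in APS-PM. Its log2 fold change of 1.80 (SE 0.27, edgeR adjusted p = 0.00428) in DE(a)-PM was lost without DE(a)-PM replicate 1 (edgeR adjusted p = 0.44) or APS-PM replicate 2 (0.34) and in a fit of the compared libraries alone (1.00). The log2 fold change was 1.11 without DE(a)-PM replicate 1 and 2.27 without DE(a)-PM replicate 2. In PPS-PM the change of 1.08 (SE 0.26, edgeR adjusted p = 0.0127) was lost without PPS-PM replicate 1 (edgeR adjusted p = 0.057), APS-PM replicate 2 (0.19) or PPS-PM replicate 2 (0.060) and in a fit of the compared libraries alone (0.10). The DE(a)-PM comparison called 0.0928% of all genes and the PPS-PM comparison called 3.01% higher.

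The media of the second day were compared within each first treatment, in 12 comparisons. Of 108 tests of the 9 genes, 36 were called higher in the first-named medium and 19 lower, and over all genes 11.2% and 10.7% were, with single comparisons between 8.42% and 13.1% and between 8.37% and 13.3%. LM medium was the medium of CLDN4, which was called higher in LM than in PM and than in DE(b) after each of the 4 first treatments. The highest contrast was in DE(a) cells, with 2.52 and 2.05 CPM in DE(b) medium, 7.90 and 6.12 in PM and 33.8 and 28.9 in LM, and without overlap. The log2 fold change of LM against DE(b) there was 3.72 (SE 0.40, edgeR adjusted p = 2.77e-07). Of the 8 CLDN4 calls, 4 held under every alternative, and those were DE(a) in both contrasts, APS against DE(b) and PPS against PM. After MPS, the call of LM against PM was lost without MPS-PM replicate 2 (edgeR adjusted p = 0.15), and that of LM against DE(b) was lost without MPS-DE(b) replicate 2 (edgeR adjusted p = 0.083). After APS, the call of LM against PM was lost without APS-LM replicate 1 (edgeR adjusted p = 0.058), APS-PM replicate 2 (0.22) or APS-LM replicate 2 (0.057). After PPS, the call of LM against DE(b) was lost without PPS-DE(b) replicate 1 (edgeR adjusted p = 0.067), PPS-DE(b) replicate 2 (0.064) or PPS-LM replicate 2 (0.16).

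DE(b) medium held the most OCLN. OCLN in DE(b) medium was called higher than in PM medium after each of the 4 first treatments and higher than in LM medium after each as well. After MPS it stood at 19.6 and 23.5 CPM in DE(b), 8.58 and 6.92 in PM and 3.69 and 6.36 in LM. The DE(b) libraries were above the others in that set. The log2 fold change of LM against DE(b) was -2.02 (SE 0.29, edgeR adjusted p = 1.20e-05), and of DE(b) against PM 1.53 (SE 0.28, edgeR adjusted p = 2.92e-04). The call of PPS-DE(b) against PPS-PM was lost without PPS-DE(b) replicate 1, PPS-PM replicate 1, PPS-DE(b) replicate 2 or PPS-PM replicate 2 (edgeR adjusted p from 0.095 to 0.23), with RLE size factors (0.052) and with the identifiers kept apart (0.093). The call of PPS-LM against PPS-DE(b) was lost without PPS-LM replicate 1 (edgeR adjusted p = 0.21) or PPS-DE(b) replicate 2 (0.12). After DE(a), the log2 fold change of OCLN in DE(b) against PM was 1.5 (SE 0.27, edgeR adjusted p = 2.19e-04), and it was 2.11 without DE(a)-PM replicate 1 and 1.09 without DE(a)-PM replicate 2, called both times. EPCAM after PPS was highest in LM medium, which on the log2 scale stood above PM by 2.31 (SE 0.27, edgeR adjusted p = 5.58e-07), and above DE(b) by 1.94 (SE 0.27, edgeR adjusted p = 6.74e-06). After APS, EPCAM in LM was instead below that in DE(b), with a log2 fold change of -1.23 (SE 0.27, edgeR adjusted p = 0.00111).

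The 9 genes did not form a single pattern. Over the 17 condition means of log2(CPM + 1), the correlation of pairs of the 9 genes ran from -0.17 for CLDN4 with OCLN to 0.92 for CLDN6 with CLDN7, and it was 0.67 for CLDN4 with CLDN10. These are descriptions over conditions that share treatments. Among all genes that reached 10 CPM in some condition, CDH1, the gene of E-cadherin, was the most alike to EPCAM, with r = 0.91 over 17 conditions, followed by MARVELD2, a tricellular junction protein, with 0.90. For CLDN6 and CLDN7 the most alike gene was FHDC1, at 0.95 and 0.94, followed by AP1M2, an adaptor of basolateral sorting in epithelial cells, at 0.94 for CLDN6, and by STC2 at 0.94 for CLDN7. OCLN was nearest to KIF1A (0.97) and FNBP1L (0.94), CLDN4 to SGK1 (0.90) and CACNG4 (0.90), and CLDN10 to FOXI3 (0.88) and SLC7A3 (0.82). CLDN3 was nearest to APH1B and C1orf115 (both 0.89), TJP1 to ZNF697 (0.91) and TPD52L2 (0.89), and TJP3 to SLCO4A1 (0.95) and EPHB6 (0.92).

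Some of the other genes of the junction were also called in PPS-LM against MPS-LM, where 4.23% of all genes were called higher and 2.02% lower. Of 13 plaque genes 3 were called higher and none lower, and these were AMOT (log2 fold change 2.27), the scaffold cingulin gene CGN (1.69) and MAGI3 (0.95). Of 11 other membrane genes 3 were called higher and 1 lower, with MARVELD2 at 1.45, F11R at 0.68 and JAM3 at -0.52. Of 11 other claudins that were tested, none was called by edgeR or DESeq2, and 2, CLDN9 and CLDN20, had an unadjusted edgeR p under 0.05. In the matriptase system, proteases and inhibitors that act on EPCAM, the protease PRSS8 was called higher, at 2.06, as were the inhibitors SPINT1 and SPINT2, at 1.69 and 1.16. Of 10 adherens junction and desmosome genes 3 were called higher. CDH1 had a mean of 689 CPM in PPS-LM and 56.8 CPM in MPS-LM, a log2 fold change of 3.57 (SE 0.28, edgeR adjusted p = 2.96e-08).

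Most epithelial transcription and splicing factors were higher in PPS-LM and DE(a)-LM than in MPS-LM. The shares of all genes called higher were 4.23% and 9.43%, and 2.02% and 6.13% were called lower. In PPS-LM against MPS-LM, 7 of 9 epithelial factors were called higher and 1 lower, among them GRHL1 (4.80), GRHL2 (3.61), which activates CLDN4 and CDH1, and the splicing factors ESRP1 (3.57) and ESRP2 (2.11). Of 5 repressors of epithelial genes 1 was called, SNAI1, and it was higher, at 0.97. In DE(a)-LM against MPS-LM, 8 of 9 epithelial factors were called higher, and the repressors SNAI2 and ZEB2 lower, at -2.10 and -1.84. KLF5, the factor not called higher, stood at 13.8 and 20.6 CPM in DE(a)-LM, below both MPS-LM libraries. In PPS-24h against MPS-24h the repressors ZEB2 and SNAI1 were lower, at -2.16 and -1.29, while AMOT and CGN of the plaque were higher, at 3.19 and 2.13. In MPS-LM against the control, all 5 repressors were called higher and 7 of 9 epithelial factors lower, where 23.0% and 21.1% of all genes were.

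**Figure D5:**
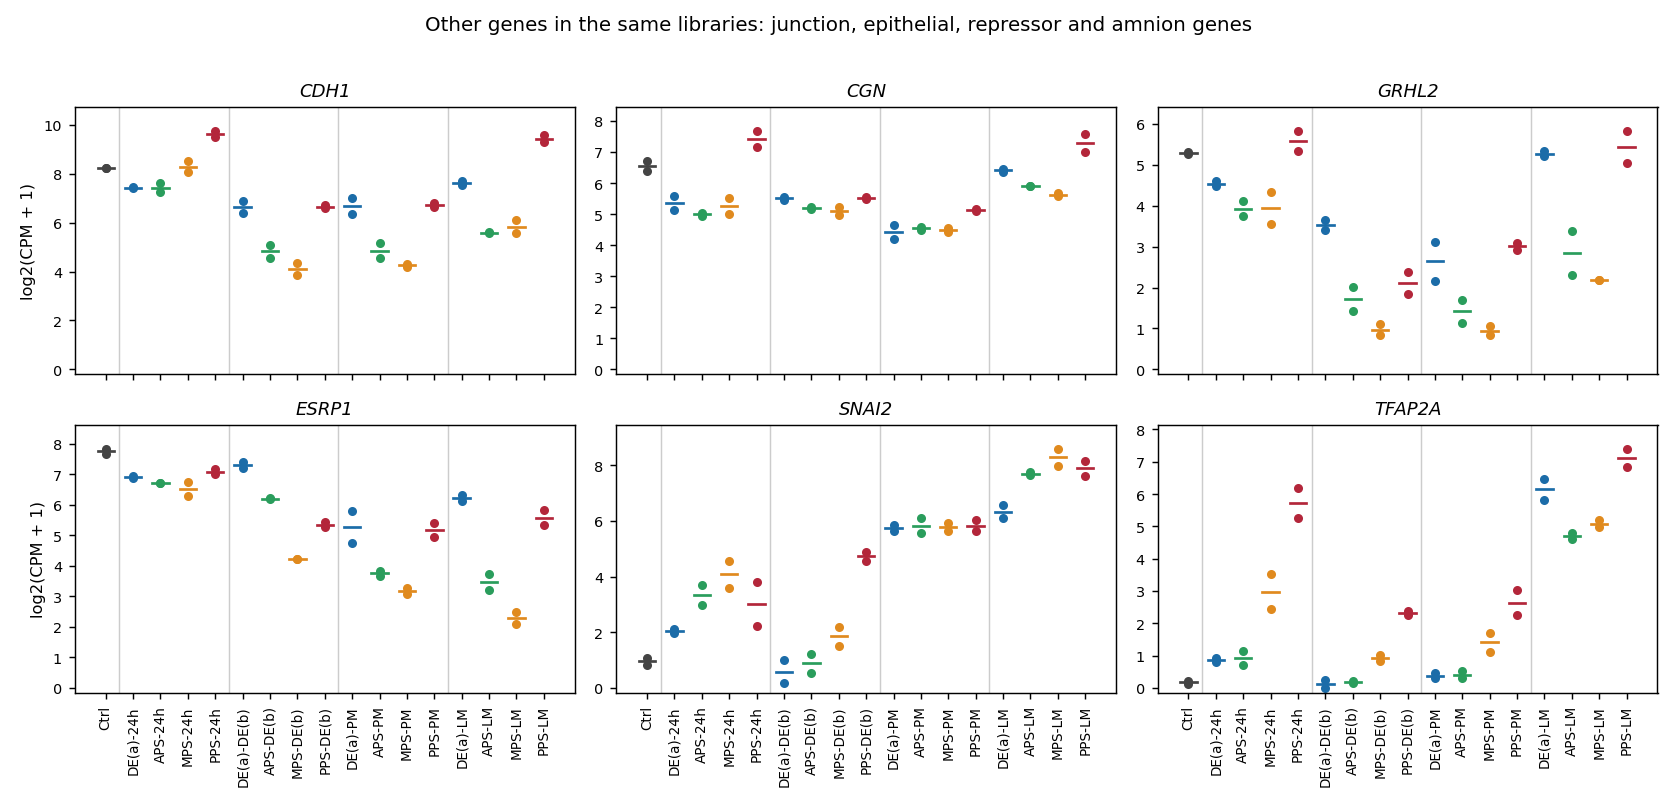
Level as log2(CPM + 1) of CDH1, CGN, GRHL2, ESRP1, SNAI2 and TFAP2A in the 17 conditions, with 2 libraries per condition as points and the mean as a bar. CDH1, CGN and GRHL2 are highest in PPS-24h and PPS-LM, and CGN and GRHL2 come next in the control and DE(a)-LM. SNAI2 is highest in the 4 LM groups, followed by the PM groups, and TFAP2A is highest in PPS-LM.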

How the data were processed

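The authors mapped the bulk RNA reads with Salmon 1.10.2 in quasi-mapping mode, corrected for sequence and GC bias, to a GRCh38 transcriptome and summed transcripts to genes in R 4.4.2. The deposited values are estimated counts per Ensembl gene, not scaled for depth or length, in 1 table for the replicate 1 libraries and 1 for the replicate 2 libraries. Per the labels the 2 replicates of a group are separate samples. In the main fit, p-values rest on the spread between replicates pooled over all groups and moderated across genes. They do not measure the spread of the compared libraries alone.

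Estimated counts of identifiers with the same symbol were summed (1034 symbols) and rounded to whole numbers. CPM divides a count by its library's total. All 34 libraries in 17 groups were fitted together in edgeR 4.0.16 (R 4.3.3) with TMM scaling, filterByExpr and glmQLFTest, giving 17236 genes, a common dispersion of 0.0412 and 17 residual degrees of freedom. Benjamini-Hochberg adjustment ran over all genes of each of 58 contrasts, and an adjusted p under 0.05 was a call. The 58 list PPS-LM against MPS-LM both with the standards and with the PPS and MPS comparisons. Intervals of log2 fold changes are 95% t intervals. The study's methods used here state no test.

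The 9 genes, the other lists and the contrasts were chosen with earlier results of these data known. Named from each other list were up to 4 called genes with the largest absolute log2 fold change and at least 10 CPM in a group, and for each of the 9 genes the 2 most alike in Pearson correlation over the 17 condition means. Other lists held other claudins, junction membrane, plaque and polarity genes, the matriptase system, epithelial factors, repressors, adherens junction genes and cell type markers. Some genes of these lists are not reported here.

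Alternatives were RLE size factors, no filter on low counts, a replicate block, a fit of the compared libraries alone, DESeq2 1.42.0, leaving out each library, and, added after seeing the data, identifiers kept apart. On simulated counts for PPS-LM against MPS-LM (16565 genes) the test called 72 of 100 genes changed by 1 on the log2 scale, 100 of 100 changed by 2, and 12 of 16365 unchanged. The changed genes were drawn only from those above a mean CPM that CLDN3 and TJP3 do not reach. Each gene had the trended dispersion and the same mean in all other groups. The result therefore does not describe sparse genes such as CLDN3 and TJP3.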

Additional observations from a re-analysis of the deposited data

Results flagged for a closer look

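For 7 genes the effect of the first day's treatment differed between the media of the second day, by the interaction test over the 12 groups of 48 h in edgeR: EPCAM (adjusted p = 2.58e-05), CLDN3 (0.0442), CLDN4 (0.00842), CLDN6 (2.53e-05), CLDN7 (0.000524), CLDN10 (0.000114) and OCLN (0.0426). The same test called 14.8% of all genes. The calls of CLDN3 and OCLN were lost in 18 and 17 of 29 alternatives.

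For 3 genes the difference between PPS and MPS was itself different in LM and DE(b) medium, by the same kind of test on that pair of media: CLDN6 by 1.73, EPCAM by 1.48 and TJP1 by -0.89 on the log2 scale. Of all genes 2.61% were called higher and 1.89% lower there. The CLDN6 call held under every alternative, and those of EPCAM and TJP1 did not. The values by library stand in the account of these media.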

How the results depend on the processing

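Over all comparisons 264 tests of the 9 genes were called, 172 of them under every alternative, and no called direction was reversed. PPS-LM against MPS-LM stands both among the comparisons with the standards and among those of PPS with MPS. Its tests are counted in both. Calls were lost in 6 tests under RLE size factors, 8 without the filter on low counts, 20 with identifiers kept apart, 29 in fits of the compared libraries alone, and 0 under DESeq2. A further 52 were lost only when a library was left out.

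The count of higher calls against the control, 10, ran from 5 to 10 when 1 library was left out. Between treatments at 24 h the 3 higher calls became 6 without the filter and 5 under DESeq2. Between PPS and MPS the 1 lower call, TJP1, became 0 under RLE size factors, without the filter, with identifiers kept apart and in the fit of the compared libraries, and ran from 0 to 1 when a library was left out. For the interaction, the 2 higher calls became 6 without the filter and ran from 1 to 3 when a library was left out, and the 1 lower call became 2 without the filter, 0 with identifiers kept apart, and ran from 0 to 1.

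Libraries with the same replicate number, which is also the deposited table they stand in, deviated together weakly and not in every pair: over 136 pairs of groups the correlation ran from -0.0548 to 0.383 (median 0.0784), and 43 were over 0.1, so the numbers were not taken as a pairing. CLDN10 was higher in replicate 1 in 14 of 17 groups and TJP1 in 2. With the number as a replicate block, higher and lower calls were 13 and 90 against the control, 4 and 0 at 24 h, 10 and 59 between days, 18 and 13 against the standards, 13 and 1 between PPS and MPS, 38 and 23 between media, and 2 and 1 for the interaction. Under the block TJP1 also passed the joint test over the groups of 48 h (adjusted p = 0.00467), CLDN10 was higher in PPS-DE(b) than in MPS-DE(b) (0.0206) and CLDN6 in PPS-PM than in MPS-PM (0.0496), all in edgeR.

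Signs changed in 13 tests that were not called. Leaving out 1 library gave ranges for PPS against MPS of -0.0335 to 0.13 for CLDN6 in DE(b), -0.60 to 0.77 for CLDN10, -0.0437 to 0.29 for TJP1 and -4.23 to 2.17 for TJP3 in PM, and -0.33 to 0.0316 for CLDN10 in LM. The interaction of LM with PM ran from -0.90 to 0.46 for CLDN10, -0.0368 to 0.85 for OCLN and -0.0462 to 6.35 for TJP3, that of LM with DE(b) from -0.77 to 0.0350 for CLDN4 and -0.18 to 0.75 for CLDN7, and that of PM with DE(b) from -0.27 to 0.83 for CLDN3 and -3.87 to 2.52 for TJP3. With identifiers kept apart, TJP1 gave 0.12 for PM with DE(b). The cause was not tested. CLDN3 and TJP3 are limited by depth, with under 5 counts in all in some groups.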
